A study of Mus musculus with 12 samples.

Results

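The response of wild-type C2C12 cells to differentiation medium was taken from 6 of the 12 libraries of the series. C2C12 is an established line of mouse skeletal muscle myoblasts, and the libraries are bulk RNA sequencing of its total RNA. Libraries were assigned by their labels. The 3 wild-type (WT) libraries in growth medium (GM) came from cells kept for 5 days in medium with 10% fetal bovine serum, and the 3 WT libraries in differentiation medium (DM) from cells kept for 5 days in medium with 2% horse serum. Both arms started from part-grown cultures in GM, so GM and DM differ in the amount and the source of serum over the same time. The sources used here give no density at harvest. The labels call the libraries biological replicates of a single line. The other 6 libraries, 3 in GM and 3 in DM under the same conditions, come from cells labelled as Mapk14 knockout, here called KO-labelled. They entered the shared estimate of spread and a test of whether the WT response differed from theirs. Mapk14 RNA was at 130.3, 136 and 137 CPM in KO-labelled GM libraries and 93.8, 90.02 and 84.5 CPM in KO-labelled DM libraries, against 130.1, 135 and 108 and 93.9, 91.2 and 88.7 CPM in WT GM and WT DM. The RNA therefore does not part the genotype labels, and directions between them follow the labels only.

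Myoblasts are committed muscle precursors that divide while mitogens are plentiful. When serum is lowered they leave the cell cycle, switch on the basic helix-loop-helix factor myogenin and the MEF2 factors, fuse, and assemble sarcomeres, the contractile units built of myosin and actin filaments between Z-discs. MyoD and Myf5 mark the committed precursor, whereas myogenin, muscle myosins and the fusion protein myomaker mark its differentiation. In C2C12 cultures some cells stay mononucleated beside the myotubes, and bulk RNA sums over all of them.

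WT libraries held 8821669 to 10255298 counts. A low-count filter kept 13250 of 55416 genes. Levels are CPM values, counts relative to library size after scaling by TMM (trimmed mean of M-values), and 3 counts in a WT library correspond to 0.299 to 0.346 CPM. Changes are log2 fold changes, DM minus GM, ± SE from a model fitted to all 12 libraries, and adjusted p is the Benjamini-Hochberg value of edgeR's quasi-likelihood test over all 13250 genes. A gene is said to have risen or fallen where adjusted p was below 0.05. By this rule 4405 genes were called, 33.2% of those tested. In DM 2442 genes rose (18.4%) and 1963 fell (14.8%), and the median change over all tested genes was -0.01. Among them 894 rose at least 2-fold (6.75%) and 330 fell at least 2-fold (2.49%). For 5867 of all tested genes (44.3%) the 3 GM and 3 DM libraries did not overlap. The counts and medians of gene groups below are to be read against these shares.

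The first principal component of the WT libraries held 70.2% of their variance and parted GM from DM. GM replicate 3 stood apart from the other GM libraries, at 25.2 on this component against 47.6 and 43.5, with the DM libraries at -35.7 to -41.8. It also stood alone on the second component, which held 9.28%. It was the highest GM library for 623 of the 894 genes that rose at least 2-fold (69.7%), and for 40.4% of all tested genes. It was the lowest GM library for 207 of the 330 genes that fell at least 2-fold (62.7%), and for 37.9% of all tested genes. Without it 2641 genes rose and 2293 fell.

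The label of the cells was checked against markers. Of 9 skeletal myoblast markers all were tested and 8 rose, or 7 without GM replicate 3. The muscle intermediate filament gene Des was at 839, 924 and 984 CPM in GM and 1759, 1797 and 1814 CPM in DM. Myod1, which encodes the myogenic factor MyoD, was at 138, 135 and 111 CPM in GM and 150.1, 169 and 146 CPM in DM. Ptprc, Adgre1, Tyrobp, Fcer1g and Aif1, defining genes of leukocytes and macrophages, had 0 counts in all WT libraries. Of the 10 genes of that list 4 were tested, together at 34.3 to 47.7 CPM in GM and 19.1 to 22.2 CPM in DM. Cd14 and Cd68 fell at least 2-fold and none rose. None of 8 endothelial markers passed the filter. Of 7 epithelial markers 2 were tested, together at 11.4 to 16.5 CPM in GM and 6.57 to 8.99 CPM in DM. Krt14 rose and Krt19 fell, each at least 2-fold. Of 15 bone and cartilage markers 7 were tested, together at 121 to 143 CPM in GM, and 1 rose and 3 fell. Of 14 neural markers 6 were tested, together at 157 to 192 CPM in GM, and none was called. Of 10 adipocyte markers 5 were tested, none rose and 3 fell at least 2-fold, Cebpd (-1.33 ± 0.32), Dgat2 (-1.28 ± 0.22) and Fabp4 (-1.17 ± 0.35), which was not called without GM replicate 3 (-0.65). The summed level of the list was 139 to 203 CPM in GM and 83.6 to 95.7 CPM in DM, with Adipoq, Cidec and Retn at 0 counts in all WT libraries. The part of these other cell types in the changes below was not tested.

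**Figure D1:**
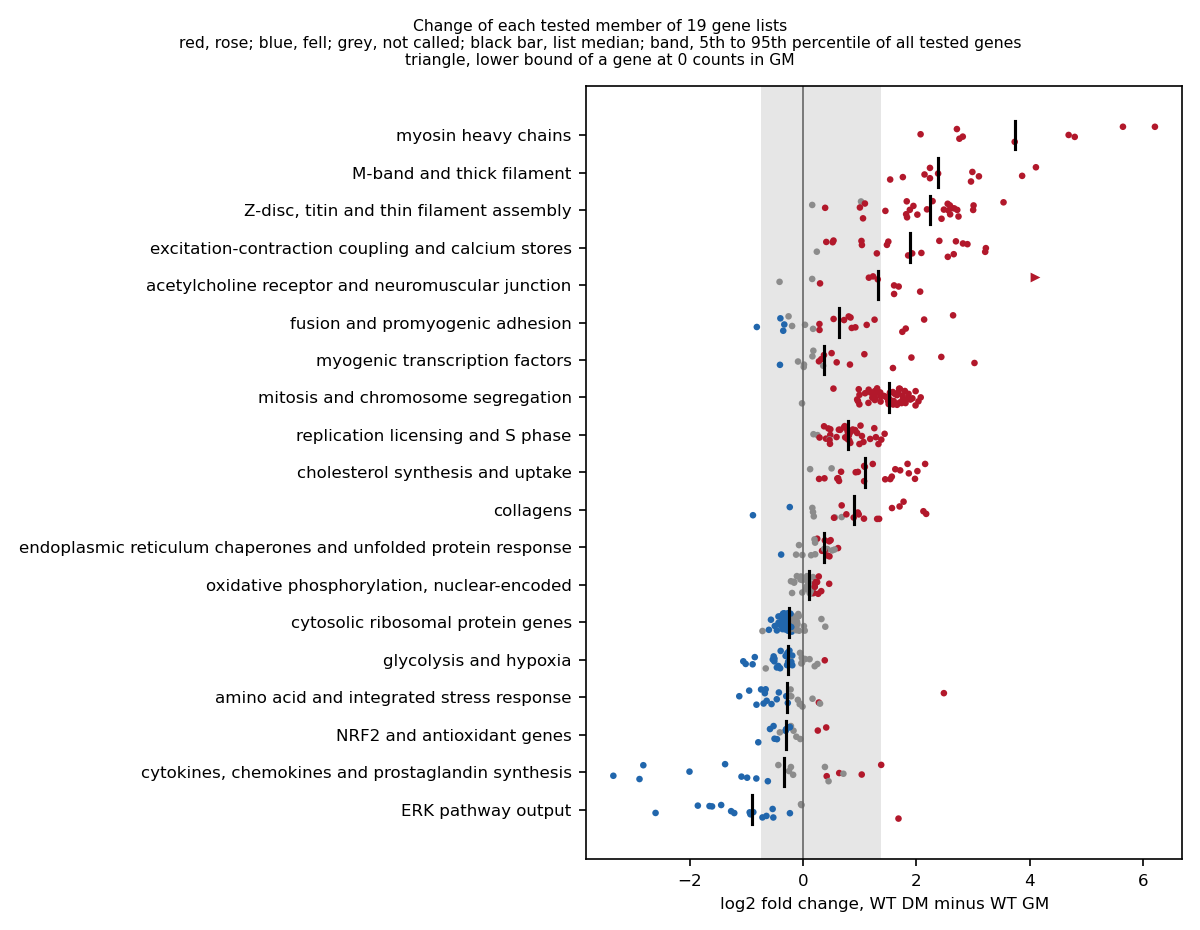
Log2 fold change (x axis, WT DM minus WT GM) of every tested member of 19 gene lists (y axis). Points are genes, red where they rose, blue where they fell and grey where they were not called, triangles are lower bounds of genes with 0 counts in GM, black bars are list medians and the band is the 5th to 95th percentile of all 13250 tested genes. The medians of the muscle structure, mitosis and cholesterol lists lie to the right of 0, and that of ERK pathway output lies to the left.

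Muscle regulators rose unevenly. Of 18 tested myogenic transcription factors 11 rose and 1 fell, with a median of 0.36. Myog (ENSMUSG00000026459), which encodes myogenin, was at 127, 143 and 219.7 CPM in GM and 658, 592 and 595 CPM in DM, a log2 change of 1.91 ± 0.31 (adjusted p = 0.00169). Mef2c, a MEF2 factor that acts with the myogenic factors, was at 5.76, 7.2 and 14.6 CPM in GM and 68.1, 84.3 and 73.04 CPM in DM, a log2 change of 3.03 ± 0.30 (adjusted p = 0.000112). In both, GM replicate 3 was the highest GM library and no GM library reached the DM range. Smyd1, a muscle methyltransferase and myosin chaperone, changed by 2.44 ± 0.14 and Tead4, a TEAD factor, by 1.59 ± 0.14 on the log2 scale. The early factors moved little: Myod1 changed by 0.28 ± 0.09 (adjusted p = 0.0163) and Myf5 by 0.50 ± 0.15 (adjusted p = 0.0104). Eya1, a transcriptional cofactor, was the member that fell, by 0.41 ± 0.15 on the log2 scale. None of these 3 calls held in every setting: Myod1 was not called without GM replicate 3 (0.18) or DM replicate 2 (0.20), and Myf5 was not called without GM replicate 2 (0.42) or DM replicate 2 (0.45). Eya1 was not called without any of GM replicates 1 and 2 (-0.38 and -0.40), DM replicates 1 and 3 (-0.43 and -0.34) or KO-labelled DM replicate 1 (-0.41). It was also not called by DESeq2's Wald test (adjusted p = 0.0534), by limma-voom (adjusted p = 0.0597) or without robust dispersions in edgeR (adjusted p = 0.0575). Myf6, the remaining myogenic factor, had 4 counts over the GM libraries and 2 over the DM libraries and was not tested. In bulk RNA, fewer cells of a type and less RNA per cell cannot be told apart, which holds for each change below.

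All 9 sarcomeric myosin heavy chain genes rose, with a median of 3.74. Without GM replicate 3, 8 rose and the median was 4.23. Their summed level ran from 67.4 to 170.2 CPM in GM and from 1581 to 1647 CPM in DM. Embryonic Myh3 was at 42.7, 48.2 and 102 CPM in GM and 891, 854 and 825 CPM in DM, a log2 change of 3.74 ± 0.36 (adjusted p = 6.77e-05). Myh1, the fast type IIx chain, was at 11.8, 15.8 and 42.5 CPM in GM and 595, 610.1 and 612 CPM in DM, a log2 change of 4.69 ± 0.49 (adjusted p = 0.000101). In each, the highest GM library was replicate 3, the DM libraries lay close together, and without that GM library the change of Myh1 was 5.45. Slow Myh7 was at 10.8, 9.35 and 22.3 CPM in GM and 112, 104 and 84.8 CPM in DM. Perinatal Myh8 was at 0.514, 0.537 and 1.1 CPM in GM and 18.5, 24.2 and 18.4 CPM in DM, so its GM libraries held few counts. Fast type IIa Myh2 was at 0.309, 0.322 and 0.299 CPM in GM and 14.1, 14.8 and 19.5 CPM in DM, and no GM library held more than 3 counts of it. Type IIb Myh4 had 3 counts over the GM libraries, all in replicate 3, and 245 over the DM libraries, a ratio of 83.3-fold (95% counting interval 28.2 to 407). Per kilobase of exon, the order of mean levels in DM was Myh3 at 141, Myh1 at 95.3, Myh7 at 11.7, Myh2 at 2.26, Myh8 at 1.73 and Myh4 at 1.42 CPM per kb. The lengths merge all annotated exons of a gene and can exceed that of a transcript, so this order depends on the annotation. In mean CPM Myh8 was above Myh2 in DM. The DM libraries of Myh3 and Myh1 do not overlap in CPM, whereas those of Myh2 and Myh8 do. These genes are closely related, and their counts depend on how the authors' pipeline split shared reads.

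Myosin light chain and thin filament genes moved the same way. All 7 tested light chain and light chain kinase genes rose, or 6 without GM replicate 3. Mylpf, the fast regulatory light chain, was at 104, 120.5 and 252 CPM in GM and 1031, 816 and 895 CPM in DM, a log2 change of 2.52 ± 0.45 (adjusted p = 0.00258). Myl4, the embryonic light chain, was at 26.5, 30.3 and 58.9 CPM in GM and 439.6, 414 and 408 CPM in DM. Myl2, the slow regulatory chain, had 0 counts over the GM libraries and 51 over the DM libraries, at least 17.3-fold higher when set against 3 counts over the GM group (DESeq2's Wald test gave it an adjusted p of 0.25). Of 12 troponin, striated actin and tropomyosin genes 11 rose and none fell, and their summed level ran from 1952 to 2731 CPM in GM and 7913 to 8233 CPM in DM. Skeletal actin Acta1 was at 351, 401 and 680.5 CPM in GM and 2694, 2753 and 2692 CPM in DM, and GM replicate 3 alone was above 401 CPM in GM. Cardiac actin Actc1, the main striated actin of early muscle, was at 23.9, 26.4 and 48.5 CPM in GM and 452, 452 and 431 CPM in DM. The slow troponins Tnnt1, Tnni1 and Tnnc1 changed by 2.90 ± 0.23, 2.76 ± 0.35 and 2.74 ± 0.33 on the log2 scale, and fast Tnnt3 by 2.70 ± 0.31.

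In the Z-disc and thin filament assembly list 26 of 28 rose and none fell (median 2.24). Titin, Ttn, the spring that spans the sarcomere from Z-disc to M-band, was at 55.8, 74.3 and 87.03 CPM in GM and 409, 443 and 433 CPM in DM. Actn2, the Z-disc alpha-actinin, was at 1.75, 3.55 and 3.09 CPM in GM and 20.05, 25.1 and 22.5 CPM in DM. The myosin chaperone Unc45b was at 3.81, 5.48 and 5.39 CPM in GM and 44.6, 33.8 and 39.5 CPM in DM. Groups stood apart for each of these. Xirp2 and Myot were at 2.53, 1.94 and 3.09 and 1.27, 1.94 and 2.49 CPM in DM and rose by 3.54 ± 0.59 and 2.74 ± 0.60 on the log2 scale, with Xirp2 at 5.28 without GM replicate 3. All 11 M-band and thick filament genes rose (median 2.38). Mybph, a myosin-binding protein of the thick filament, was at 67.4, 79.4 and 157 CPM in GM and 879.9, 881 and 852 CPM in DM, a log2 change of 3.10 ± 0.41 (adjusted p = 0.000432). The slow and fast myosin-binding proteins C, Mybpc1 and Mybpc2, were at 3.57, 3.88 and 2.1 and 3.57, 4.5 and 1.5 CPM in DM and rose by 3.87 ± 0.60 and 4.11 ± 0.60, with Mybpc1 at 5.61 without GM replicate 3. The M-band genes Myom1 and Myom3 changed by 2.96 ± 0.32 and 2.99 ± 0.21 on the log2 scale.

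Excitation-contraction coupling links the voltage sensor of the surface membrane to calcium release from the sarcoplasmic reticulum. Here 19 of 20 tested genes rose and none fell (median 1.89). Casq2, a calsequestrin that holds calcium in the store, was at 29.7, 34.2 and 73.3 CPM in GM and 429.8, 425 and 422 CPM in DM. Its fast-fibre form Casq1 was at 2.88, 3.44 and 6.99 CPM in GM and 44.4, 43.3 and 37.9 CPM in DM. Cacna1s, the voltage sensor, was at 4.22, 8.7 and 16.9 CPM in GM and 72.6, 86.2 and 65.1 CPM in DM, a log2 change of 2.90 ± 0.42 (adjusted p = 0.00076). The GM libraries of Cacna1s spread about 4-fold, yet all lay below the DM range, and without replicate 3 the change was 3.53. Srl and Hrc, proteins of the calcium store, changed by 2.82 ± 0.30 and 2.70 ± 0.25 on the log2 scale. Among muscle ion channels 5 of 9 rose. Scn4a, the sodium channel of adult muscle, was at 1.03, 1.61 and 1.8 CPM in GM and 13.1, 13.2 and 15.5 CPM in DM, a log2 change of 3.22 ± 0.28 (adjusted p = 6.16e-09).

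At the neuromuscular junction, 9 of 11 tested genes rose and none fell. Chrna1, the alpha subunit of the acetylcholine receptor, was at 317, 329 and 366 CPM in GM and 839, 865 and 819 CPM in DM. Chrng, the gamma subunit that is particular to the fetal receptor, was at 50.3, 51.7 and 59.6 CPM in GM and 235, 226 and 217 CPM in DM, a log2 change of 2.07 ± 0.23 (adjusted p = 0.000133). Chrnd, the delta subunit, was at 39.3, 42.7 and 43.7 CPM in GM and 132, 127 and 124 CPM in DM. Chrne, whose product replaces the gamma subunit in the adult, had 0 counts over the GM libraries and 4 over the DM libraries and was not tested. Dok7 and Lrp4, which act with the kinase MuSK in clustering the receptor, changed by 1.69 ± 0.13 and 1.61 ± 0.09 on the log2 scale. Colq, the collagen tail that anchors acetylcholinesterase, had 0 counts over the GM libraries and 50 over the DM libraries, at least 17-fold higher against 3 counts over the GM group.

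Promoters of 4 risers are shown because they hold motifs bound by muscle regulators. They are RefSeq promoters (build GRCm38.p6), read 5′ to 3′ on the strand of the gene, cut from the 250 bases before the start. Capitals mark the E-box CAGCTG bound by myogenic factors, the CArG box bound by serum response factor, or the MEF2 motif CTANNNNTAG, searched on both strands. The marked motifs do not overlap one another. The E-box is in 14.7%, the CArG box in 1.62% and the MEF2 motif in 3.7% of the 27025 promoters in the table.
Acta1 (chr8:123894776-123895025, reverse strand): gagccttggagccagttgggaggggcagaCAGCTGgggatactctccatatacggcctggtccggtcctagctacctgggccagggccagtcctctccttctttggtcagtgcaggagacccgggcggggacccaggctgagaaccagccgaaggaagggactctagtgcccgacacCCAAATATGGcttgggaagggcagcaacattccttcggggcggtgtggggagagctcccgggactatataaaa
Myh4 (chr11:67237682-67237781, forward strand): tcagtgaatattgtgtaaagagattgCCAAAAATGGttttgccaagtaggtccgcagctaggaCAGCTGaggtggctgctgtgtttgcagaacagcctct
Klhl41 (chr2:69669970-69670119, forward strand): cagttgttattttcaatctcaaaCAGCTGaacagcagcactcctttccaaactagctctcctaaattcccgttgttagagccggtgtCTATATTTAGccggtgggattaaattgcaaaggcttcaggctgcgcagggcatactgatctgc
Chrng (chr1:87205631-87205730, forward strand): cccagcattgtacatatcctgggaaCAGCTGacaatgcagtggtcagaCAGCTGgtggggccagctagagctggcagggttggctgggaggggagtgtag
Counted from the base just before the start, the E-box of Acta1 begins 221 bases upstream and its CArG box 73 bases upstream. In Myh4 the CArG box begins at 104 and the E-box at 67. In Klhl41, a sarcomere-associated kelch protein gene that changed by 2.55 ± 0.36 on the log2 scale, the E-box begins at 127 and the MEF2 motif at 63. Chrng holds E-boxes at 155 and 132. Of the 92 contractile, calcium and receptor genes that rose, only 67 had a promoter in the table (72.8%). Among these 67, 28 held the E-box (41.8%), 9 the MEF2 motif (13.4%) and 5 the CArG box (7.46%). For the 9866 tested genes found in the table the shares were 14.6%, 3.34% and 1.45%. These shares were not tested, and the genes without a promoter there are not covered. A match is a run of letters and shows no binding.

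**Figure D2:**
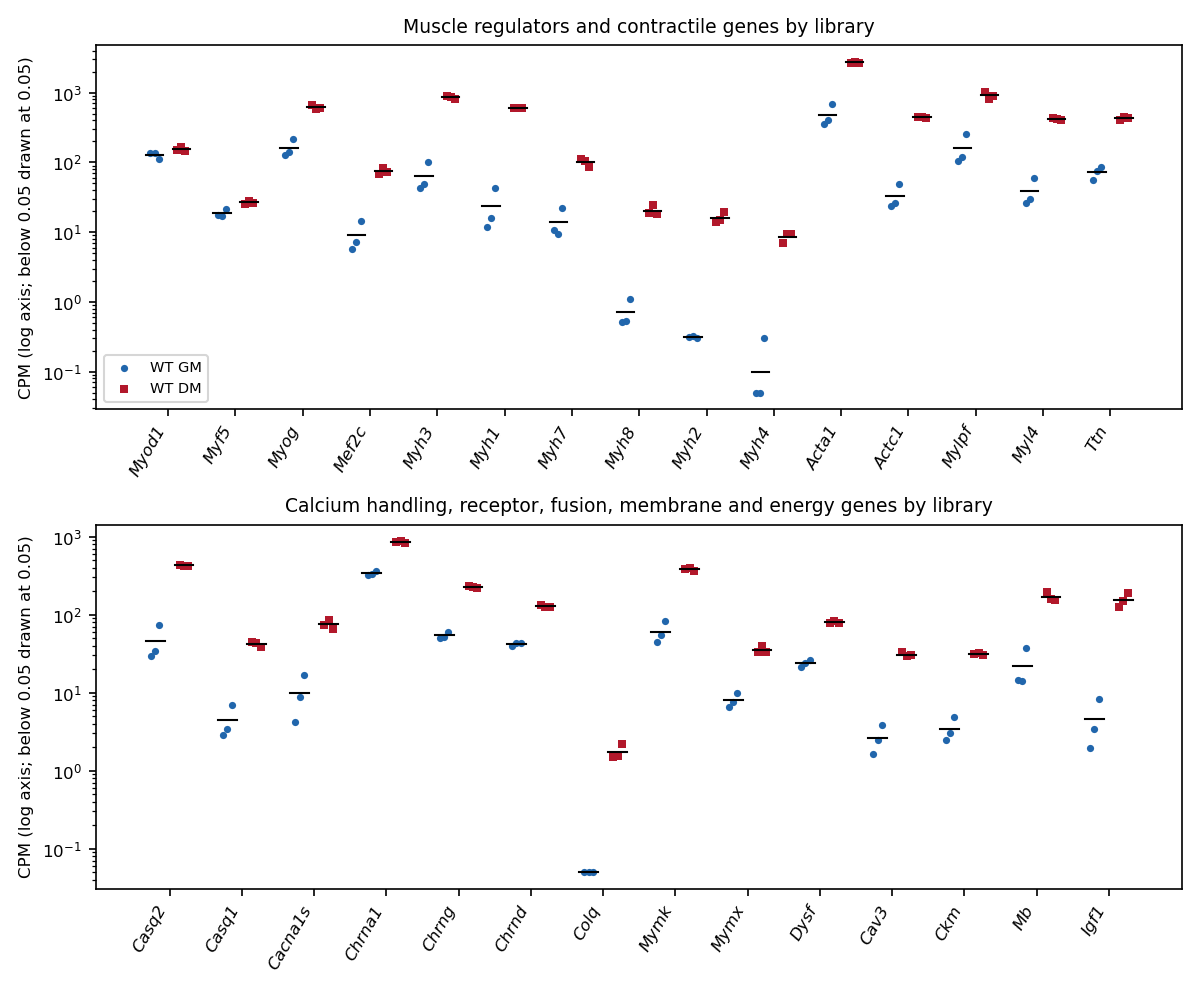
CPM (y axis, log scale) of 29 muscle genes (x axis) in each WT library, with GM as blue circles, DM as red squares and group means as black bars; values below 0.05 CPM are drawn at 0.05. GM and DM do not overlap for any gene shown, as for 44.3% of all tested genes, and the highest GM point of Acta1, Myh1 and Casq2 is replicate 3.

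Genes of fusion and the membrane rose in part. In the fusion and adhesion list 14 of 22 rose and 4 fell. Mymk, which encodes the fusogen myomaker, was at 43.8, 54.1 and 83.4 CPM in GM and 379.9, 392 and 365 CPM in DM, a log2 change of 2.65 ± 0.31 (adjusted p = 0.000233). Mymx, which encodes its partner myomixer, was at 6.58, 7.52 and 9.88 CPM in GM and 33.1, 39.2 and 33.4 CPM in DM. All DM libraries were above all GM libraries for both. Dysf, dysferlin of membrane repair, was at 20.98, 23.96 and 25.8 CPM in GM and 77.6, 82.1 and 78.7 CPM in DM. The tetraspanin Cd9 fell, at 405, 385 and 386 CPM in GM and 234, 208 and 225 CPM in DM. Of 19 genes of the dystrophin-glycoprotein complex and caveolae 11 rose and 1 fell, or 2 without DM replicate 1 or GM replicate 3. Cav3, the muscle caveolin, was at 1.65, 2.47 and 3.79 CPM in GM and 32.7, 29.01 and 30.04 CPM in DM. Sntb1, a syntrophin, rose by 1.87 ± 0.23, while its relative Sntb2 changed by -0.38 ± 0.09 on the log2 scale.

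Of 20 tested muscle energy genes 13 rose and 1 fell. Ckm, muscle creatine kinase, was at 2.47, 3.01 and 4.79 CPM in GM and 30.8, 32.5 and 30.3 CPM in DM, a log2 change of 3.18 ± 0.20 (adjusted p = 7.85e-11). Myoglobin, Mb, which stores oxygen, was at 14.4, 13.9 and 36.9 CPM in GM and 196, 159 and 154 CPM in DM. Pygm, muscle glycogen phosphorylase, was at 5.45, 5.37 and 10.3 CPM in GM and 51.8, 57.3 and 55.5 CPM in DM. GM replicate 3 was the highest GM library for these 3 genes and lay below every DM library. Without it the change of Mb was 3.58, against 2.95 ± 0.37 with it. Perm1, a regulator of oxidative genes in adult muscle, fell from 2.78, 1.29 and 1.2 CPM to 0.922, 0.409 and 0.399 CPM, but not without GM replicate 1 (-1.13), DM replicate 2 (-1.43) or DM replicate 3 (-1.41). Among 14 splicing regulators 7 rose and Ptbp1, a repressor of muscle exons, fell by 0.45 ± 0.08 on the log2 scale. Rbm24, which promotes muscle exons, was at 28.1, 31.6 and 40.4 CPM in GM and 98.2, 98.8 and 101 CPM in DM. Imprinted growth genes held 5 risers of 9. The H19 noncoding RNA was at 968, 1119 and 2257 CPM in GM and 4587, 4341 and 4252 CPM in DM, a log2 change of 1.60 ± 0.36 (adjusted p = 0.00943). Its neighbour Igf2 was at 93.1, 114 and 170.3 CPM in GM and 146, 146 and 122 CPM in DM, with overlapping groups (0.14 ± 0.22, adjusted p = 0.688), and its change was -0.05 without GM replicate 1 and 0.41, then called, without GM replicate 3.

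Progenitor markers and inhibitors of differentiation split, with 7 of 24 rising and 11 falling (median -0.13). The ID proteins bind and block partners of the myogenic factors. Id1 was at 98.6, 88.5 and 60.3 CPM in GM and 29.3, 28.7 and 24.8 CPM in DM, a log2 change of -1.58 ± 0.14 (adjusted p = 5.78e-08). Id3 was at 198, 205 and 178 CPM in GM and 106, 103 and 109 CPM in DM. Id4 was at 2.47, 2.69 and 4.29 CPM in GM and 0.346, 0.102 and 0.0998 CPM in DM. All 3 fell, with no overlap between groups, and the change of Id4 was -4.07 ± 0.64, or -4.82 without DM replicate 1. No DM library held more than 3 counts of Id4, so the size of its fall rests on few counts. Pax7, the satellite cell factor, was at 23.9, 23.3 and 24.95 CPM in GM and 20.3, 19.1 and 21.9 CPM in DM, and its change was not called (-0.24 ± 0.13, adjusted p = 0.171). The basic helix-loop-helix repressor Msc rose, at 0.823, 1.18 and 1.9 CPM in GM and 3.8, 3.88 and 5.39 CPM in DM. Sox8, a SOX factor of satellite cells, also rose, at 1.13, 1.4 and 3.99 CPM in GM and 4.15, 6.33 and 6.79 CPM in DM, by 1.39 ± 0.35 with and 2.18 without GM replicate 3.

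Cell cycle genes were higher in DM than in GM, where serum is higher. Of 54 mitosis genes 53 rose and 0 fell, with a median of 1.52. GM replicate 3 was the highest GM library for 45 of the 54. Mki67, the proliferation marker, was at 17.5, 18.6 and 36.4 CPM in GM and 77.8, 87.2 and 98.2 CPM in DM, a log2 change of 1.86 ± 0.23 (adjusted p = 0.000199). Ccnb1, cyclin B, was at 11.6, 11.7 and 14.8 CPM in GM and 29.1, 32.4 and 40.8 CPM in DM. Ccna2, cyclin A, was at 14.7, 11.7 and 22.5 CPM in GM and 52.9, 64.2 and 69.8 CPM in DM. The groups did not overlap for these. Birc5, a protein of the mitotic chromosomal passenger complex, was at 5.35, 6.34 and 7.29 CPM in GM and 22.1, 23.7 and 29.3 CPM in DM. Nusap1, a spindle protein, was at 3.91, 4.94 and 7.88 CPM in GM and 21.8, 26.2 and 22.95 CPM in DM. Of 41 replication and S phase genes 38 rose and none fell, by less (median 0.79). Mcm5 of the replicative helicase was at 70.7, 66.2 and 81.3 CPM in GM and 155, 151 and 142 CPM in DM. Thymidine kinase, Tk1, was at 21.1, 17.3 and 27.7 CPM in GM and 58.3, 59.3 and 62.2 CPM in DM. Ccne2, cyclin E, rose by 1.28 ± 0.15 and E2f2, an activator of S phase genes, by 1.33 ± 0.11 on the log2 scale. Of 26 DNA repair and checkpoint genes 20 rose, among them Brca1 (1.44 ± 0.13) and Fancd2 (1.83 ± 0.22). Without GM replicate 3 the mitosis median was 1.67, and 53 genes rose.

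Genes that regulate the cycle moved in both directions. In the list of CDK inhibitors, D cyclins and retinoblastoma proteins, which mixes genes that restrain and drive the cycle, 7 of 22 rose and 5 fell. Cdkn1a, which encodes the inhibitor p21, was at 427, 382 and 379.9 CPM in GM and 809, 731 and 747 CPM in DM, a log2 change of 0.94 ± 0.07 (adjusted p = 1.34e-09). Rb1, the retinoblastoma protein gene, was at 32.1, 35.8 and 44.01 CPM in GM and 67.97, 65.9 and 73.04 CPM in DM. Ccnd1, cyclin D1, fell, at 606, 594 and 465 CPM in GM and 293, 277 and 225 CPM in DM. Ccnd3, the D cyclin of differentiating muscle, rose, at 163, 163 and 177 CPM in GM and 304, 281 and 265 CPM in DM. Gadd45a, a stress-induced growth arrest gene, was at 57.4, 51.6 and 82.6 CPM in GM and 194, 168 and 169 CPM in DM. Cdkn1c was at 3.5, 2.9 and 2.69 CPM in GM and 2.07, 2.04 and 2.3 CPM in DM, and its change was not called (-0.50 ± 0.28, adjusted p = 0.184). Among p53 targets and the BCL2 family 8 of 22 rose and 6 fell, with the proapoptotic genes Pmaip1 and Bax changing by 1.39 ± 0.19 and -0.62 ± 0.12 on the log2 scale. The chromatin protein Hmga1, abundant in dividing embryonic cells, was at 281, 229.7 and 151 CPM in GM and 70.6, 66.4 and 47.9 CPM in DM. Its relative Hmga2 was at 207, 202 and 138 CPM in GM and 52.4, 60.2 and 41.7 CPM in DM. Both fell, and GM replicate 3 was the lowest GM library for each. Hmgb2, another DNA-bending protein, changed in the other direction, by 1.08 ± 0.14.

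Promoters of 2 mitosis genes are shown because they hold a pair of motifs common in genes of the late cell cycle, the CCAAT box and the CHR motif TTTGAA, in capitals on either strand.
Ccnb2 (chr9:70421555-70421744, reverse strand): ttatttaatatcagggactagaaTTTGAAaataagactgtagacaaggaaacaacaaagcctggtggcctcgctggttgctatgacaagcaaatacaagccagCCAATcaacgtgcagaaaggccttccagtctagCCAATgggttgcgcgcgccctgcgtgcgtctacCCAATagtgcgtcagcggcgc
Mki67 (chr7:135716460-135716579, reverse strand): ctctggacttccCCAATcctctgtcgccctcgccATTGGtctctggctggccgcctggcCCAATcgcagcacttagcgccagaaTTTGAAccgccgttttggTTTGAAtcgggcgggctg
In Ccnb2 TTTGAA begins 167 bases before the start, upstream of the CCAAT boxes at 87, 54 and 21. In Mki67 the CCAAT boxes begin at 188, 166 and 141, upstream of TTTGAA at 116 and 98, so the order of the motifs differs between the genes. The cyclin gene Ccnb2 was at 3.39, 2.69 and 5.69 CPM in GM and 12.3, 12.3 and 22.3 CPM in DM. In the 250 bases before the start, 32 of the 44 risen mitosis genes with a RefSeq promoter held CCAAT (72.7%), as did 20 of 31 risen S phase genes (64.5%), against 37.5% of all 27025 genes in the table and 41.1% of the 9866 tested genes found in it (74.5% of those tested). TTTGAA was in 34.1% of the mitosis promoters, 19.4% of the S phase promoters, 18.3% of all promoters and 12.8% of those of tested genes. The E2F motif GGCGGGA was in 18.2% of the mitosis promoters and 29% of the S phase promoters, against 11% of all promoters and 21% of those of tested genes. No test was made of these shares.

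**Figure D3:**
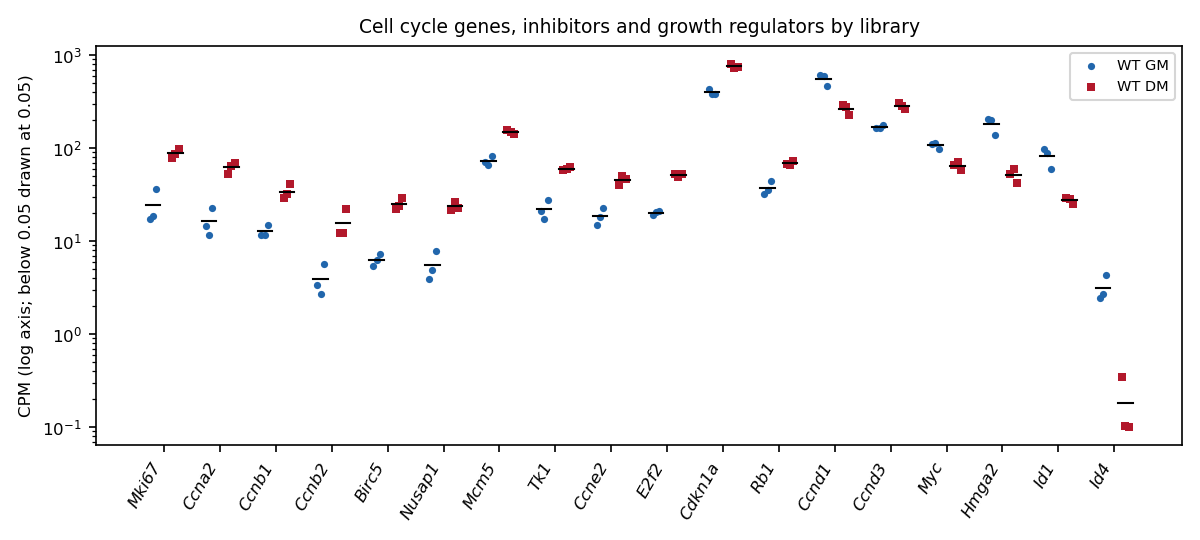
CPM (y axis, log scale) of 18 cell cycle, inhibitor and growth genes (x axis) in each WT library, with GM as blue circles, DM as red squares and group means as black bars. Cyclins A and B and Mki67 are higher in DM together with Cdkn1a, while Ccnd1, Myc, Hmga2, Id1 and Id4 are lower.

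Most genes that report ERK signalling fell. Of 18 genes that report ERK pathway output 15 fell and 1 rose, with a median of -0.91. Ereg, an EGF receptor ligand, was at 141, 151 and 113 CPM in GM and 29.95, 17.9 and 19.2 CPM in DM. Areg, another ligand of that receptor, was at 19.3, 17.6 and 7.19 CPM in GM and 3.92, 5.01 and 3.19 CPM in DM. Plaur, the urokinase receptor, was at 117, 110.5 and 93.8 CPM in GM and 36.4, 33.4 and 32.5 CPM in DM, a log2 change of -1.65 ± 0.10 (adjusted p = 7.47e-11). The phosphatase Dusp5 was at 67.2, 60.2 and 33.7 CPM in GM and 16.4, 17.2 and 19.2 CPM in DM, and GM replicate 3 was the lowest GM library, although still above DM. The riser was Spry1, an inhibitor of receptor kinase signalling, at 4.83, 4.41 and 5.89 CPM in GM and 15.1, 17.9 and 15.8 CPM in DM. Of 20 immediate early genes 4 rose and 8 fell, and 2 rose with total counts alone or without any of GM replicates 2 and 3 and DM replicates 1 and 2. The nuclear receptor Nr4a2 was at 109, 119.8 and 112 CPM in GM and 16.1, 12.2 and 5.99 CPM in DM. Its relative Nr4a1 was at 33.7, 36.2 and 34.3 CPM in GM and 10.7, 12.6 and 10.6 CPM in DM. Fosl1, an AP-1 subunit, was at 193, 167 and 133 CPM in GM and 60.02, 61.4 and 52.7 CPM in DM. These 3 fell, whereas zinc finger factors of the EGR family rose. Egr1 was at 61.3, 63.5 and 56.99 CPM in GM and 107, 119 and 114 CPM in DM. Egr3 was at 10.5, 9.78 and 7.98 CPM in GM and 25, 27.99 and 28.5 CPM in DM. Fos was at 4.32, 3.76 and 5.59 CPM in GM and 4.61, 4.7 and 6.79 CPM in DM, with overlapping groups (0.24 ± 0.24, adjusted p = 0.48).

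Mapk14, which encodes p38 alpha, changed by -0.45 ± 0.08 on the log2 scale (adjusted p = 0.000125). In the p38 list 7 of 19 fell and 1 rose (4 fell without GM replicate 2, and 2 rose without DM replicate 1), and the upstream kinases Map2k3 and Map2k6 changed by -0.63 ± 0.10 and -0.93 ± 0.19. Among SRF, MRTF and YAP targets 2 of 20 rose and 6 fell. Tagln, transgelin, was at 368, 394 and 492 CPM in GM and 649, 618 and 611 CPM in DM. Filamin A, Flna, which crosslinks actin, was at 2433, 2398 and 2031 CPM in GM and 1585, 1701 and 1590.2 CPM in DM. Ccn2, a YAP target, fell by 0.31 ± 0.09 on the log2 scale, with overlapping groups, and was not called without GM replicate 3 (-0.22) or DM replicate 1 (-0.23). Without GM replicate 3, 4 rose and 7 fell.

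Secreted regulators held some of the widest changes. Igf1, a growth factor that promotes muscle growth, was at 1.95, 3.44 and 8.28 CPM in GM and 124, 148 and 187 CPM in DM, a log2 change of 5.05 ± 0.42 (adjusted p = 2.22e-05). The 3 GM libraries spread over 4-fold, with replicate 3 the highest, and all lay far below DM. Without replicate 3 the change was 5.83. In the IGF list as a whole 8 of 16 rose and 3 fell. The adapters Irs1 and Irs2 moved apart, by 0.78 ± 0.08 and -0.73 ± 0.14 on the log2 scale. In the BMP list 5 of 17 rose and 6 fell. Gremlin, Grem1, a secreted BMP antagonist, was at 2278, 2364 and 2283 CPM in GM and 723, 728 and 606 CPM in DM, a log2 change of -1.75 ± 0.07 (adjusted p = 3.7e-13). Chordin, Chrd, an antagonist that moved the other way, was at 4.63, 3.44 and 5.09 CPM in GM and 12.7, 12.97 and 12.5 CPM in DM. The ligand Bmp4 rose, at 29.4, 32.02 and 38.1 CPM in GM and 84.3, 83.6 and 95.2 CPM in DM. Gdf6, a related ligand, rose as well, at 0.72, 0.322 and 1.1 CPM in GM and 9.91, 9.91 and 11.6 CPM in DM. In the TGF-beta and activin list 9 of 22 rose and 5 fell. The ligands Tgfb2 and Tgfb3 changed by 1.42 ± 0.41 and 1.11 ± 0.25 on the log2 scale. Tgfb2 was at 2.02 without GM replicate 3 and was not called without GM replicates 1 or 2 (1.16, 1.22), without DM replicates 2 or 3 (1.45, 1.29) or in a fit of the WT libraries alone (1.42, adjusted p = 0.079 by edgeR). Fst, follistatin, which binds activin and myostatin, was at 43, 51.6 and 63.98 CPM in GM and 86.2, 94.7 and 114 CPM in DM. Mstn, myostatin, had 4 counts over the GM libraries and 12 over the DM libraries and was not tested.

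Of 14 tested Notch genes 8 rose and 2 fell. The target Heyl was at 1.23, 2.15 and 2.1 CPM in GM and 11.3, 15.02 and 14.1 CPM in DM, a log2 change of 2.88 ± 0.26 (adjusted p = 3.88e-08). The ligand Dll1 was at 5.97, 3.12 and 4.39 CPM in GM and 13.9, 12.6 and 13.97 CPM in DM. The DNA-binding partner of Notch, Rbpj, changed by -0.60 ± 0.08 on the log2 scale. In the Wnt list 8 of 24 rose and 2 fell. Lgr5, a receptor for R-spondins, had 3 counts over the GM libraries, all in replicate 3, and 163 over the DM libraries, a ratio of 55.4-fold (95% counting interval 18.6 to 271). Its relative Lgr6 fell, at 24.7, 22.7 and 16.2 CPM in GM and 3.8, 4.6 and 3.59 CPM in DM. Axin2 and Lef1, which respond to Wnt signalling, changed by 1.28 ± 0.17 and 1.28 ± 0.20 on the log2 scale. Among growth factor and cytokine receptors 8 of 25 rose and 6 fell. Erbb3, the neuregulin receptor, was at 8.33, 9.78 and 12.9 CPM in GM and 64.6, 60.3 and 67.4 CPM in DM. Ramp3, a receptor partner of the adrenomedullin and calcitonin receptor family, had the largest fitted fall of the genes named here. It was at 37.3, 28.2 and 19.8 CPM in GM and 0.691, 0.306 and 0.299 CPM in DM, a log2 change of -6.03 ± 0.33 (adjusted p = 1.95e-10). DM replicates 2 and 3 held 3 counts of it each, so the size of this fall rests on few counts.

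Sterol genes rose together. Of 24 tested genes of cholesterol synthesis and uptake 22 rose and none fell, with a median of 1.08 (1.08 without GM replicate 3). Insig1, which retains SREBP proteins in the endoplasmic reticulum and is itself an SREBP target, was at 9.87, 10.4 and 11.8 CPM in GM and 45.4, 44.03 and 53.5 CPM in DM, a log2 change of 2.15 ± 0.14 (adjusted p = 7.95e-11). Idi1, an enzyme of isoprenoid synthesis, was at 15.6, 16.3 and 23.95 CPM in GM and 72.5, 68.2 and 86.2 CPM in DM. All DM libraries lay above all GM libraries for these. In fatty acid synthesis 12 of 16 rose and 1 fell. The fall was lost without GM replicate 1, GM replicate 2 or DM replicate 3, and 2 fell without GM replicate 3. The desaturase Fads2 was at 35.9, 32.7 and 39.02 CPM in GM and 110.1, 117 and 125 CPM in DM. Scd2, a desaturase that makes monounsaturated fatty acids, was at 594, 619 and 699.6 CPM in GM and 1539, 1596 and 1806 CPM in DM. Srebf1, an SREBP gene, changed by 0.78 ± 0.09 on the log2 scale. The promoter of Hmgcs1, HMG-CoA synthase, is shown because it holds a sterol motif, TCACNCCAC, beside CCAAT boxes, all in capitals.
Hmgcs1 (chr13:119690161-119690350, forward strand): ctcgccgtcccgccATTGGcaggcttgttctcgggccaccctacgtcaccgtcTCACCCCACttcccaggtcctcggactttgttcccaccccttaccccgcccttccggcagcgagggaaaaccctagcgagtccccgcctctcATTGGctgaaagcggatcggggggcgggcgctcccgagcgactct
The sterol motif begins 137 bases before the start, and the motif is in 1.22% of all promoters in the table. Hmgcs1 itself was at 33.6, 37.9 and 45.1 CPM in GM and 119, 125 and 139 CPM in DM. Only 15 of the 22 risen sterol genes had a promoter in the table. Of these 15 promoters 1 held the sterol motif and 14 held CCAAT, so the promoter shown is not typical of them for the sterol motif.

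Glycolytic and hypoxia genes fell by small amounts. Of 34 tested 22 fell and 1 rose, with a median of -0.27. Slc2a1, the GLUT1 glucose transporter, was at 349, 298 and 278 CPM in GM and 153, 149 and 157 CPM in DM, a log2 change of -1.01 ± 0.09 (adjusted p = 1.04e-08). Vegfa, the hypoxia-induced angiogenic factor, was at 346, 322 and 269 CPM in GM and 167, 165 and 172 CPM in DM. Ndrg1 and Adm, which hypoxia induces, changed by -0.85 ± 0.08 and -1.06 ± 0.19 on the log2 scale. P4ha1, a collagen prolyl hydroxylase, was the riser (0.38 ± 0.08). The motif GCGTG is the core that hypoxia-inducible factors and the aryl hydrocarbon receptor share. It was in 16 of the 21 promoters of fallen genes found in the table (76.2%). The share was 30.9% of all promoters in the table and 50.2% of those of the 9866 tested genes found in it. Of the risen sterol genes 11 of 15 promoters held it (73.3%), as did 50% of the risen mitosis and 45.2% of the risen S phase promoters. No test was made of these shares. Nuclear-encoded oxidative phosphorylation genes changed little: 9 of 39 rose and none fell, but with total counts alone 5 rose and 4 fell. Without DM replicate 2 the rises numbered 5, and without GM replicate 2 4. Without DM replicate 1 or KO-labelled GM replicate 3, 2 fell. The largest change was that of Uqcrfs1 (0.46 ± 0.08). Of 13 mitochondrially encoded transcripts 3 rose and none fell, and without GM replicate 3 the counts were 5 and 1. Without GM replicate 1 or DM replicate 2, 1 rose. The ATP synthase subunit mt-Atp6 was at 1100.2, 1203 and 1269.7 CPM in GM and 1446, 2003 and 1886 CPM in DM, and was not called when any of GM replicates 1 and 2 or DM replicates 2 and 3 was left out (0.52, 0.57, 0.47 and 0.53). In fatty acid oxidation and lipid handling 5 of 23 rose and 4 fell. The fatty acid transporter Cd36 was at 0.617, 1.07 and 1.1 CPM in GM and 5.76, 6.33 and 6.59 CPM in DM. Angptl4, a lipoprotein lipase inhibitor, was at 221, 215 and 129 CPM in GM and 77.9, 74.2 and 70.8 CPM in DM.

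Ribosomal protein and ribosome biogenesis genes fell in part, and genes of stress responses moved in both directions. Of 84 tested cytosolic ribosomal protein genes 55 fell and none rose, with a median of -0.25. The falls numbered 29 without DM replicate 3, and 40 without DM replicate 2 or GM replicate 1, and 1 rose without GM replicate 3. Their summed level was 54943 to 58574 CPM in GM and 46068 to 51774 CPM in DM. Rpl18, of the large subunit, was at 854, 763 and 684 CPM in GM and 601, 537 and 530.5 CPM in DM. Of 25 Myc and ribosome biogenesis genes 15 fell and 1 rose, the rise not being called without DM replicate 1. Myc, the growth-promoting factor, was at 112, 113 and 98.8 CPM in GM and 65.3, 70.3 and 58.8 CPM in DM, a log2 change of -0.74 ± 0.09 (adjusted p = 8.8e-07). In the integrated stress response list 13 of 24 fell and 2 rose, or 1 without DM replicate 2, DM replicate 3 or GM replicate 3. The pseudokinase Trib3, a target of this response, was at 29.4, 28.5 and 21.6 CPM in GM and 12.2, 11.1 and 12.97 CPM in DM. Fgf21, a stress-induced hormone that muscle can secrete, went the other way, at 1.75, 2.9 and 2.4 CPM in GM and 12.8, 12.3 and 14.5 CPM in DM. In the endoplasmic reticulum list 9 of 21 rose and 1 fell. Calreticulin, Calr, a calcium-binding chaperone, was at 1424, 1539.6 and 2053 CPM in GM and 2339.8, 2331 and 2353 CPM in DM. Without GM replicate 3, which was the highest GM library for 19 of the 21, 16 rose. Without GM replicate 2 or DM replicate 1, 5 rose. The fall was lost without GM replicate 1, GM replicate 2 or DM replicate 3. Of 16 heat shock proteins 3 rose and 4 fell, and 2 fell without DM replicate 2, DM replicate 3 or GM replicate 3. The small muscle forms Hspb2 and Hspb8 rose by 1.42 ± 0.22 and 1.00 ± 0.08, and inducible Hspa1a was at 19.03, 28.9 and 28.05 CPM in GM and 12.1, 7.46 and 8.88 CPM in DM.

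Genes induced by xenobiotics, metals and glucocorticoids leaned to lower values in DM. Cyp1a1, a cytochrome P450 induced through the aryl hydrocarbon receptor, was at 26.4, 26.01 and 13.7 CPM in GM and 1.15, 0.817 and 0.399 CPM in DM, a log2 change of -4.81 ± 0.34 (adjusted p = 1.8e-08). Ahrr, a repressor of that receptor, was at 16.97, 17.2 and 15.3 CPM in GM and 5.53, 8.89 and 6.29 CPM in DM. The quinone reductase Nqo1 was at 68.7, 57.6 and 47.7 CPM in GM and 24.7, 19.3 and 20.8 CPM in DM. All 3 fell with no overlap between groups. The other 5 of the 8 genes of this list were not called. Of 17 NRF2 and antioxidant genes 10 fell and 2 rose, none of them 2-fold, and with total counts alone none rose. The rises were both lost without GM replicate 2, DM replicate 1, DM replicate 3 or KO-labelled DM replicate 3, and 1 gene rose without GM replicate 1, GM replicate 3, KO-labelled GM replicate 2 or KO-labelled DM replicate 1. In the list of glucocorticoid-responsive genes and metallothioneins 6 of 11 fell and 3 rose. The metallothionein Mt1, which binds zinc, was at 381, 279.9 and 372 CPM in GM and 138, 127 and 114 CPM in DM. Mt2, its neighbour, was at 287, 261 and 356 CPM in GM and 91.4, 83.8 and 88.6 CPM in DM. Sgk1, a kinase induced by glucocorticoids and serum, was at 195, 198 and 179 CPM in GM and 82.3, 84.1 and 74.9 CPM in DM. Hsd11b1, which regenerates active glucocorticoid, rose, at 35.4, 44.6 and 55.2 CPM in GM and 98.96, 108 and 114 CPM in DM.

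Most collagen genes tested rose. Of 21 tested 14 rose and 2 fell, with a median of 0.89. The falls numbered 0 without GM replicate 2 or DM replicate 3, and 1 without GM replicate 1, DM replicate 1, DM replicate 2 or KO-labelled DM replicate 2. Col1a1, the main chain of fibrillar collagen I, was at 320.0, 423 and 544 CPM in GM and 1233, 1395 and 1772 CPM in DM, a log2 change of 1.77 ± 0.25 (adjusted p = 0.000685). Col5a3, a chain of collagen V, was at 31.3, 39.7 and 37.9 CPM in GM and 141, 147 and 203 CPM in DM. Col18a1, a basement membrane collagen, fell, at 221, 189 and 109 CPM in GM and 92.2, 96.9 and 91.6 CPM in DM. DM replicate 3 was the highest DM library for Col1a1 and Col5a3. Col18a1 was not called without GM replicate 2 (-0.83), without DM replicate 3 (-0.87) or in a fit of the WT libraries alone (-0.89, adjusted p = 0.0813 by edgeR). Among matrix glycoproteins and proteoglycans 13 of 34 rose and 5 fell. Periostin, Postn, was at 48.2, 61.7 and 119 CPM in GM and 368, 410.1 and 536 CPM in DM. Spp1, osteopontin, a secreted phosphoprotein, fell, at 5764, 5550.4 and 3806 CPM in GM and 1774, 1747 and 1668 CPM in DM. In the protease list 11 of 22 rose and 2 fell. Mmp15, a membrane-bound metalloprotease, was at 5.25, 7.84 and 7.78 CPM in GM and 64.7, 60.1 and 70.3 CPM in DM, a log2 change of 3.22 ± 0.16 (adjusted p = 1.1e-11). The protease inhibitor Serpinb2 was at 27.4, 25.3 and 19.1 CPM in GM and 4.26, 5.72 and 4.29 CPM in DM. Of 15 integrin genes 10 rose and 2 fell, or 1 without GM replicate 1. Itga7, the laminin receptor of muscle, was at 359.7, 375 and 389 CPM in GM and 1049.9, 1011 and 989 CPM in DM. Melusin, Itgb1bp2, which binds integrin beta 1 in muscle, was at 1.44, 2.04 and 2.4 CPM in GM and 35.9, 27.9 and 34.2 CPM in DM.

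Among cytokine, chemokine and prostaglandin genes 9 of 20 fell and 4 rose. Ptgs2, the inducible cyclooxygenase, was at 379, 412 and 396 CPM in GM and 54.3, 57.8 and 55.8 CPM in DM, a log2 change of -2.82 ± 0.13 (adjusted p = 2.53e-10). Il6, interleukin 6, was at 21.7, 29.2 and 37.6 CPM in GM and 3.57, 2.45 and 2.69 CPM in DM. Ptges, prostaglandin E synthase, was at 4.83, 5.48 and 3.29 CPM in GM and 1.04, 0.613 and 0.2 CPM in DM. For each of the 3 genes the lowest GM library was above 3 times the highest DM library. In the NF-kB and complement list 4 of 16 rose and 4 fell. The rises numbered 1 without GM replicate 2, and 2 without GM replicate 1 or DM replicate 1. In the interferon list 11 of 28 rose and 1 fell, with 5 rises without DM replicate 3. The fall was lost without GM replicate 2 or DM replicate 2, and 3 fell without GM replicate 3. Ifit1, an interferon-induced protein, was at 0.72, 0.215 and 0 CPM in GM and 1.04, 1.23 and 2.69 CPM in DM. Gbp3, a guanylate-binding protein, was at 0.617, 0.537 and 0.998 CPM in GM and 1.15, 2.15 and 4.09 CPM in DM. Their DM libraries differed by over 2-fold, with replicate 3 the highest, and neither gene was called without it (Ifit1 1.83, Gbp3 1.19). Leaving out GM replicate 1 or 3 moved Ifit1 from 2.38 ± 0.69 to 3.85 or 1.79. The monocyte gene Cd14 fell, at 33.6, 29.8 and 23.2 CPM in GM and 8.18, 7.97 and 7.08 CPM in DM, although Ptprc, Adgre1, Tyrobp, Fcer1g and Aif1 had no counts.

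**Figure D4:**
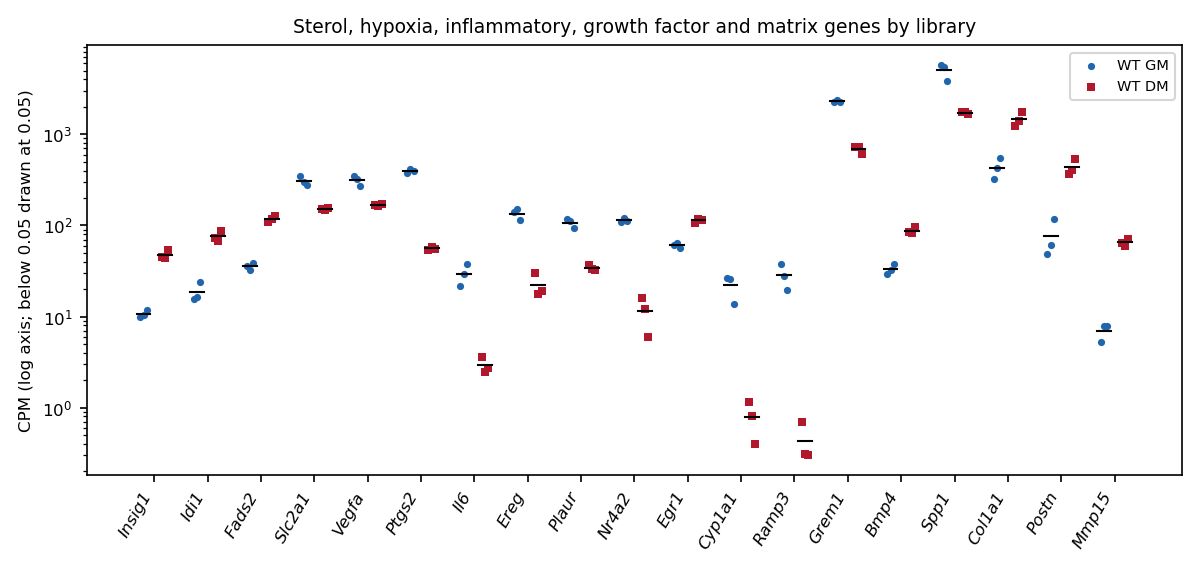
CPM (y axis, log scale) of 19 sterol, hypoxia, inflammatory, growth factor and matrix genes (x axis) in each WT library, with GM as blue circles, DM as red squares and group means as black bars. Ramp3 and Cyp1a1 show the widest falls, and GM and DM do not overlap for any gene shown, as for 44.3% of all tested genes.

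Several of the largest changes lay outside these lists. R3hdml, a member of a cysteine-rich secretory protein family, was at 0.823, 0.537 and 0.798 CPM in GM and 26.5, 26.8 and 25.4 CPM in DM, a log2 change of 5.16 ± 0.23 (adjusted p = 3.7e-13). Ablim3, an actin-binding LIM protein, was at 0.309, 0.43 and 0.898 CPM in GM and 11.9, 13.7 and 14.4 CPM in DM. Padi2, a peptidylarginine deiminase, was at 0.823, 1.29 and 2.3 CPM in GM and 30.1, 30.95 and 32.03 CPM in DM. Adamtsl2, a secreted glycoprotein of the matrix, was at 1.34, 0.537 and 2.99 CPM in GM and 23.7, 19 and 25.9 CPM in DM. These 4 genes were below 3 CPM in GM, and the change of Adamtsl2 was 3.79 ± 0.35, or 4.58 without GM replicate 3. Pleckstrin, Plek, fell, at 54.4, 50.1 and 47.4 CPM in GM and 4.38, 2.45 and 2.79 CPM in DM. Rgs16, a regulator of G protein signalling, fell too, at 108, 119.7 and 85.3 CPM in GM and 15.8, 11.6 and 11.3 CPM in DM. So did Fam110c, at 28.5, 34.3 and 29.9 CPM in GM and 4.84, 2.66 and 2.89 CPM in DM. In each the lowest GM library was above 5 times the highest DM library. The proliferin gene Prl2c2 was at 292, 224 and 146 CPM in GM and 16.1, 20.8 and 9.98 CPM in DM. Its relative Prl2c3 was at 405, 327 and 234 CPM in GM and 48.5, 47.2 and 25.9 CPM in DM. Sprr2h, of the small proline-rich family, was at 33.3, 24.5 and 12.6 CPM in GM and 4.26, 3.47 and 1.9 CPM in DM. These 3 have near-identical copies, so their counts depend on how shared reads were assigned. Some genes had at most 3 counts over the GM libraries. Gja5, the gap junction protein connexin 40, had 2 and 112 counts over GM and DM, a ratio of 57.1-fold (95% counting interval 15.4 to 477). Htr2b, a serotonin receptor, had 3 and 103, and the homeobox gene Isx 2 and 74. The predicted gene Gm10639 had 73 counts over GM and 2 over DM, a fall of 35.8-fold (95% counting interval 9.56 to 301), and GM replicate 3 held the fewest in GM.

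The response of WT cells was set against that of the KO-labelled cells by testing the difference between the changes. It was called for 1174 genes (8.86%), 696 with a higher change in WT and 478 with a lower one. Of the 894 genes that rose at least 2-fold in WT, 131 differed, 86 of them with the larger rise in WT. Afap1l1, an actin filament-associated protein, was at 1.23, 2.36 and 3.59 CPM in WT GM and 24.8, 21.9 and 22.5 in WT DM, a log2 change of 3.25 ± 0.24. In the KO-labelled cells it was at 2.9, 2.69 and 3.28 CPM in GM and 4.05, 2.52 and 3.25 in DM, and the changes differed by 3.11 ± 0.37 (adjusted p = 1.54e-05). Npy1r, a neuropeptide Y receptor, fell in WT, at 39.7, 39.9 and 45.5 CPM in GM and 5.53, 3.06 and 3.39 CPM in DM. In the KO-labelled cells it was at 40.05, 31.3 and 46.3 CPM in GM and 35.7, 36.5 and 23.97 in DM (-3.11 ± 0.30, adjusted p = 2.43e-05). Stc1, the secreted glycoprotein stanniocalcin, was at 60.5, 82.96 and 169.9 CPM in GM and 10.7, 7.76 and 10.2 CPM in DM in WT. Its KO-labelled libraries were at 15.5, 11.6 and 45.3 CPM in GM and 34.05, 33.8 and 31.1 in DM (-3.90 ± 0.83, adjusted p = 0.0241). For these 3 genes the KO-labelled GM and DM libraries overlapped. The difference of Stc1 was not called when any single WT DM or KO-labelled DM library, or KO-labelled GM replicate 1, was left out.

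Other genes moved the same way under both labels by unequal amounts. Sprr1a, a cornified envelope protein, was at 23.97, 22.7 and 11.98 CPM in GM and 8.99, 10.2 and 9.58 CPM in DM in WT. In the KO-labelled cells it was at 15.03, 17.4 and 12.7 CPM in GM and 0.203, 0.28 and 0.0929 in DM (5.19 ± 0.50, adjusted p = 2.03e-06). Has1, a hyaluronan synthase, was at 16.97, 10.6 and 12.9 CPM in GM and 8.76, 7.56 and 8.58 CPM in DM in WT, and at 2.68, 2.34 and 1.95 and 0.203, 0.187 and 0.186 CPM in KO-labelled GM and DM (2.81 ± 0.49, adjusted p = 0.00103), and its WT fall was not called without GM replicate 1 (-0.51). These fell less in WT, as did Prr9 (3.33 ± 0.51, adjusted p = 0.000273) and Serpinb2 (2.73 ± 0.39, adjusted p = 0.00037). In KO-labelled DM 3 counts correspond to 0.279 to 0.304 CPM, and no library there held more than 3 counts of Sprr1a, Has1 or Prr9. The sizes of their differences therefore rest on few counts. Rrad, a small GTPase of muscle, was at 6.27, 4.08 and 7.88 CPM in GM and 36.4, 31.5 and 33.5 CPM in DM in WT. In the KO-labelled cells it was at 0.537, 0.173 and 0.621 CPM in GM and 19.9, 19.3 and 16.8 in DM (-2.91 ± 0.39, adjusted p = 6.01e-05). Decorin, Dcn, a matrix proteoglycan, was at 11.9, 14.2 and 21.6 CPM in GM and 35.4, 35.2 and 38.6 CPM in DM in WT, and at 0.107, 0.26 and 0.355 and 5.17, 4.02 and 6.22 CPM in KO-labelled GM and DM (-3.11 ± 0.49, adjusted p = 0.000352). These rose less in WT on the log2 scale, while every WT library was above the KO-labelled libraries of its medium. In KO-labelled GM 3 counts correspond to 0.26 to 0.322 CPM, so both genes held few counts there. Smpx, a small muscle protein, was at 2.47, 3.76 and 6.19 CPM in GM and 24.9, 25.8 and 22.2 CPM in DM in WT and at 0, 0 and 0.0887 and 4.96, 3.64 and 6.22 CPM in KO-labelled GM and DM, so its fitted difference (-4.29 ± 0.88, adjusted p = 0.0039) depends on the prior count, and was -6.10 without KO-labelled GM replicate 3.

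Among regulators, Egr1 rose in WT and was at 97.3, 93.2 and 80.3 CPM in KO-labelled GM and 70.4, 72.5 and 60.5 in KO-labelled DM, lower in DM in every library (1.32 ± 0.12, adjusted p = 1.07e-06). Egr3 was at 12.2, 12.1 and 12.2 CPM in KO-labelled GM and 7.3, 5.51 and 6.04 in KO-labelled DM (2.49 ± 0.21, adjusted p = 3.07e-07). Both thus moved in opposite directions under the 2 labels. Myog was at 31.4, 16.8 and 45.9 CPM in KO-labelled GM and 316, 294 and 287 in KO-labelled DM, below WT in each medium, and the changes were not called different (-1.34 ± 0.45, adjusted p = 0.111). Mef2c had 0 counts in the KO-labelled GM libraries and was at 1.11, 0.654 and 1.76 CPM in KO-labelled DM, against 68.1, 84.3 and 73.04 CPM in WT DM. Its changes were not called different. The fitted ratio of its WT fold to its KO-labelled fold was 0.0846, which rests on the 0 counts in KO-labelled GM. The gap between the labels within DM was not tested. The number of genes whose changes were called different moved from 693 to 1920 as single libraries were left out.

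**Figure D5:**
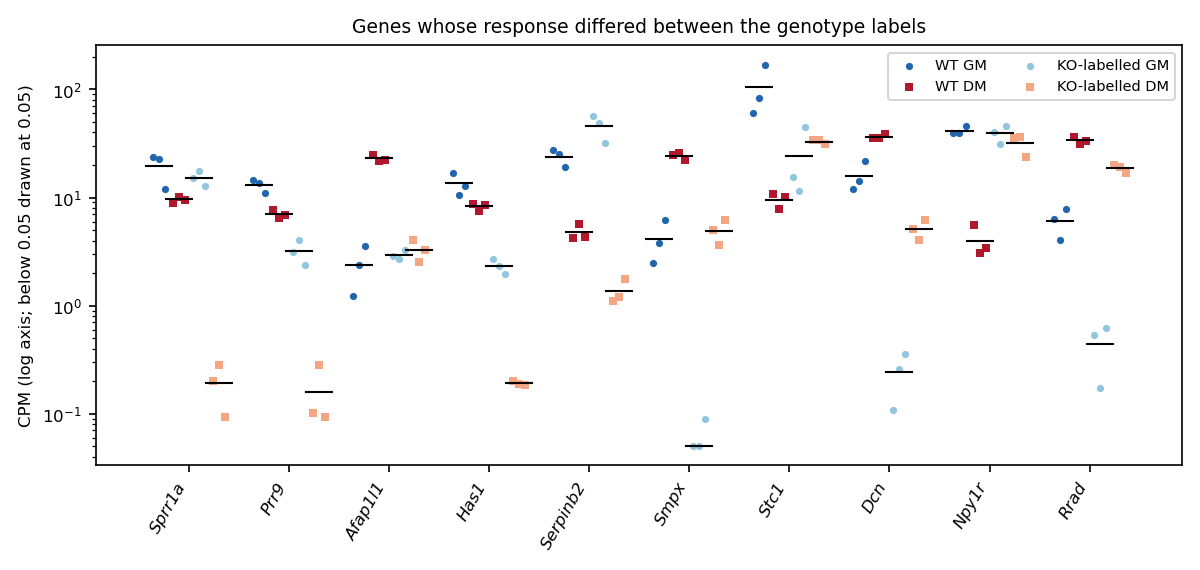
CPM (y axis, log scale) of 10 genes whose response differed between the genotype labels (x axis), in each of the 12 libraries: WT GM dark blue circles, WT DM dark red squares, KO-labelled GM light blue circles, KO-labelled DM light red squares, with group means as black bars and values or means below 0.05 CPM drawn at 0.05. Afap1l1 stands apart in WT DM, at 21.9 to 24.8 CPM, and Npy1r in WT DM, at 3.06 to 5.53 CPM, from their other groups.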

How the data were processed

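Bulk RNA from 12 libraries of C2C12 cells, 3 per genotype label and medium, was analysed, with 8821669 to 10255298 counts in the WT libraries. The values are whole-number gene counts as deposited by the authors; STAR 2.7.1a, RSEM 1.3.3, R 4.3.1 and DESeq2 1.40.2 and the build GRCm39 are named in the submitters' processing notes, without their roles, and no source used here states the annotation release, strand setting or handling of shared reads. The table also has 4 columns that hold no values, which were not used. Counts were filtered with filterByExpr over the 4 groups, scaled by TMM and tested with edgeR 4.0.16 in R 4.3.3 (glmQLFit with robust dispersions, glmQLFTest), 1 mean per group, with Benjamini-Hochberg adjustment. DESeq2 1.42.0 and limma 3.58.1 served as alternatives, with other scalings, filters, a replicate block and single libraries left out. The code was tested on simulated data. The labels call the samples biological replicates but name no separate cultures, so p-values measure the spread between these samples.

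Members and gene lists were chosen with earlier results of these data known, and 1277 of the 1280 list symbols matched the table. Genes were named by rule: the 12 largest rises and falls of at least 10 CPM without overlap, up to 5 called members of each list, a fixed panel, 5 interaction genes in each direction and 6 genes with at most 3 counts in one WT group. Hmgcs1 and Klhl41 were named outside it, for their promoters, after their values were seen, and a few genes that the rule takes are not reported here. Ratios of small counts have exact 95% intervals, and list medians were the same with genes of 0 counts at their bound. Levels per kilobase use merged exons of GENCODE M21. Promoters are from RefSeq (GRCm38.p6).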

Additional observations from a re-analysis of the deposited data

Results flagged for a closer look

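The change from GM to DM differed between WT and KO-labelled cells by the test of that difference, edgeR's quasi-likelihood test of the interaction, in 696 genes with the higher change in WT and 478 with the lower. Among genes named above or in the last part of this section, 48 differed; each value is the WT log2 change minus that of the KO-labelled cells. Among genes that fell in WT and had the higher change there, the difference was 0.90 for Adm, 0.50 for Fbxo32, 0.54 for Flna, 2.81 for Has1, 1.84 for Hmga1, 1.81 for Hmga2, 0.71 for Ndrg1 and 0.57 for Plaur. Further among genes that fell in WT and had the higher change there, the difference was 2.54 for Prl2c3, 3.33 for Prr9, 0.37 for Rbpj, 2.73 for Serpinb2 and 5.19 for Sprr1a. Among genes that rose in WT and had the higher change there, the difference was 3.11 for Afap1l1, 0.93 for Brca1, 1.70 for Casq1, 0.65 for Ccnd3, 1.12 for Ccne2, 0.54 for E2f2, 1.32 for Egr1 and 2.49 for Egr3. Further among genes that rose in WT and had the higher change there, the difference was 0.69 for Hmgb2, 0.71 for Idi1, 0.93 for Mcm5, 0.60 for Nes, 1.61 for Pmaip1, 1.24 for Tagln and 0.74 for Tead4. Among genes that rose in WT and had the lower change there, the difference was -1.25 for Apoe, -0.94 for Chrnd, -3.11 for Dcn, -0.52 for Des, -1.60 for Dll1, -0.77 for Dok7, -1.09 for Erbb3 and -0.64 for Myod1. Further among genes that rose in WT and had the lower change there, the difference was -2.91 for Rrad, -4.29 for Smpx and -1.45 for Smyd1. Among genes that fell in WT and had the lower change there, the difference was -1.23 for Cd14, -0.98 for Eya1, -0.73 for Id1, -0.97 for Id3, -0.51 for Mt2, -3.11 for Npy1r, -0.78 for Nr4a1 and -2.35 for Ptges. Further among genes that fell in WT and had the lower change there, the difference was -3.90 for Stc1. The call was lost when at least 1 single library was left out for 18 of them, namely Adm, Casq1, Des, Dok7, E2f2, Erbb3, Hmga1, Hmgb2, Id1, Idi1, Mt2, Nr4a1, Plaur, Pmaip1, Prl2c3, Rbpj, Stc1 and Tead4. The other 30 were called whichever of the 12 libraries was left out. Sprr1a, Has1, Prr9, Dcn, Rrad and Smpx among them held few counts in a KO-labelled group, as given above. The labels themselves could not be checked from Mapk14 RNA, as given above.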

How the results depend on the processing

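Of the alternatives, none called a gene in WT in the direction opposite to its call in the main setting. Counts of genes that rose and fell were 2382 and 1829 with DESeq2, 2451 and 1905 with limma-voom, 2477 and 1921 with median-of-ratios factors, 2291 and 2176 with upper-quartile factors, 2178 and 2430 with total counts alone, 2424 and 2092 without the low-count filter, 2404 and 2011 with a stricter filter, 2451 and 1943 without robust dispersions, and 2247 and 1852 with only the WT libraries. The share of calls that were rises was 55.4% in the main setting and 47.3% with total counts alone. Leaving out single libraries gave 1958 to 2641 rises and 1486 to 2293 falls. The number of genes whose response differed between the labels ran from 693 (without WT DM replicate 2) to 1920 (without KO-labelled GM replicate 3), and was 754 without KO-labelled DM replicate 1, 735 and 741 without KO-labelled GM replicates 1 and 2, and 2709 without both GM replicate 3 libraries, a setting chosen after seeing the data; apart from fewer samples, the cause was not tested. Igf2, not called, changed by -0.046 without WT GM replicate 1 and by 0.41 without WT GM replicate 3, against 0.14 with all libraries.

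The labels number replicates 1 to 3 in each group. Deviations of same-numbered WT GM and DM libraries correlated at 0.0625, 0.0371 and 0.0433, each under 0.1, so the numbers were not taken to pair the samples, although each GM library correlated best with the DM library of its own number. With the replicate block 2624 genes rose and 2162 fell. The depth limits low genes: 3 counts correspond to 0.299 to 0.346 CPM in WT, and intervals and floors cover counting error only.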

Other observations

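Further gene groups of WT cells moved between GM and DM. Of 15 nuclear envelope and intermediate filament genes 8 rose and 4 fell. Nestin, Nes, an intermediate filament of muscle precursors, was at 671, 672 and 737 CPM in GM and 1682, 1537 and 1625 CPM in DM, a log2 change of 1.22 ± 0.07 (adjusted p = 1.1e-11). Syncoilin, Sync, which joins desmin to the membrane complex, was at 33.2, 31.1 and 28.7 CPM in GM and 53.2, 53.5 and 55.5 CPM in DM. Syne3, a nesprin of the outer nuclear membrane, was at 56.1, 62.6 and 52.9 CPM in GM and 33.8, 34.7 and 31.9 CPM in DM. All DM libraries of Nes and Sync were above all GM libraries, and those of Syne3 were below.

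In the list of muscle proteolysis and autophagy 9 of 20 rose and 4 fell, or 2 without GM replicate 2. Fbxo32, the atrophy ubiquitin ligase atrogin-1, was at 72.2, 75.7 and 82.8 CPM in GM and 54.7, 54.1 and 58.7 CPM in DM, a log2 change of -0.46 ± 0.08 (adjusted p = 0.000103). Fbxo40, a ubiquitin ligase of muscle, was at 0.617, 0.107 and 0.998 CPM in GM and 6.8, 5.72 and 5.09 CPM in DM, a change of 3.30 ± 0.45, or 3.95 without GM replicate 3. Tfeb, a regulator of lysosomal genes, was at 8.85, 10.9 and 10.2 CPM in GM and 17.4, 18.6 and 19.2 CPM in DM. Of 15 clock genes 3 rose and 2 fell, or 1 without any of GM replicates 2 and 3 and DM replicates 1 to 3. Nr1d1, which encodes the repressor REV-ERB alpha, was at 242, 222 and 139 CPM in GM and 105, 122 and 94 CPM in DM, a log2 change of -0.91 ± 0.21 (adjusted p = 0.0082). Cry1, another repressor of the clock, rose, at 11.1, 10.7 and 11.9 CPM in GM and 17.3, 16.96 and 19.96 CPM in DM. Of 8 genes of cholesterol efflux 1 rose and 1 fell. None fell without DM replicate 2, and 2 fell without GM replicate 1, GM replicate 3 or KO-labelled GM replicates 1 or 3. Apolipoprotein E, Apoe, was at 22.1, 20.1 and 25.8 CPM in GM and 42.3, 33.2 and 38.02 CPM in DM. Nr1h3, which encodes LXR alpha, was at 2.37, 2.47 and 2.4 CPM in GM and 1.15, 0.306 and 1.1 CPM in DM, a log2 change of -1.50 ± 0.44 (adjusted p = 0.0114), and was not called without DM replicate 2 (-1.10).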
